A study of Mus musculus with 102 samples.

Results

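The superior colliculus (SC) and the inferior colliculus (IC) form the roof of the midbrain. They were compared here on 4 of the 102 arrays of a survey of the mouse central nervous system, chosen by region label: replicates 1 and 2 of SC and replicates 1 and 2 of IC. The mice of all groups were male Balb/c, 7-8 weeks old, with no treatment named, bought 5 weeks after birth and kept for 2 weeks in a cycle of 12 h light. Tissue was then taken in light/dark cycles or constant darkness at 6 times of day, 4 h apart. The regions were punched bilaterally with a 0.5 mm needle from frozen brain slices 0.5 mm thick, so each sample holds all the cells of a punch. Each array carries RNA pooled over these times and over many mice, and the 2 arrays of a region come from separate runs of the procedure. The lateral geniculate body (LG) and the medial geniculate nucleus (MG), each with 2 arrays of mice of the same strain, sex and age, served as a second pair of regions.

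The SC receives direct input from the retina in its superficial layers and turns the eyes and head through its deep layers. The IC is an obligatory station of the ascending auditory pathway and projects to the MG, the auditory thalamus, as the LG is the visual thalamus. The collicular neurons arise from neighbouring parts of the embryonic midbrain, where homeodomain factors and Eph-ephrin signals set position along the axis. Fast-firing neurons with perineuronal nets, parvalbumin and low-threshold potassium channels are a known feature of auditory brainstem.

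Expression is given as deposited RMA values on the log2 scale, so a difference of 1 is a fold change of 2 in signal. The 45037 probe sets without controls were fitted together over 96 arrays of 48 regions with limma. Retina, pituitary and pineal are not among the 48, so no rank among the 48 regions covers them. A probe set is called where its adjusted p for SC minus IC lies under 0.05. Of all probe sets, 3359 were called higher in SC (7.46%) and 2743 higher in IC (6.09%). With cyclic loess scaling the balance turned, to 3107 higher in SC and 3493 higher in IC, and the SC share of calls was 47.1% against 55.0%. Both arrays of SC lay above both of IC for 33% of probe sets and below them for 24.1%. The median size of a called difference was 0.48, and 194 probe sets higher in SC and 290 higher in IC differed by over 1. In punches of whole tissue, fewer cells of a type and less RNA per cell cannot be told apart. With 1 probe set per gene, the one with the highest mean, 1679 of 18193 genes were called higher in SC (9.23%) and 912 higher in IC (5.01%), and the median SC minus IC over all genes was 0.045. Without IC replicate 1 these gene shares were 5.09% and 3.05%. Leaving out any 1 of the 4 arrays lowered the calls over all probe sets, to between 1606 and 1951 higher in SC and between 1278 and 1667 higher in IC. Without IC replicate 1 they made up 4.09% and 3.7% of all probe sets. A fit without 1 array leaves 1 array in its region, which widens the error. A lost call alone then does not show that a result hangs on that array. By 1 minus the correlation of linear regional means, SC was the region closest to IC, at 0.0204, while the dorsal tegmental nucleus was closest to SC, at 0.0163. The median over all 1128 pairs of regions was 0.0856.

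The 4 arrays had medians of 7.37 to 7.44, and the median absolute difference between replicates was 0.095 in SC and 0.12 in IC. IC replicate 1 stood apart in transcripts of the cerebellar cortex, which lies directly behind the IC. *Gabra6*, a GABA receptor subunit of cerebellar granule cells, read 11.36 in IC replicate 1, 5.98 in IC replicate 2, and 5.68 and 5.35 in SC, against 13.75 in the cerebellar lobe. Of 16 genes listed for cerebellar cortex, 15 were higher in IC replicate 1 than in IC replicate 2, and their mean level was 9.56 against 7.82, with 7.94 and 7.97 in SC. Over all probe sets, 72 were more than 1 higher in IC replicate 1 than in replicate 2, and 66 of these were also higher in cerebellar cortex than in IC. The share of all probe sets higher in cerebellar cortex than in IC was not computed. Of the 16 genes, 9 were called higher in IC with all arrays, against 5.01% of all genes. Their median SC minus IC was -0.69 with all arrays and -0.05 without IC replicate 1. *Barhl1* was called higher in SC with all arrays, and *Calb1* without that array. Of the 2743 probe sets called higher in IC, 324 (11.8%) were at least 1 higher in cerebellar cortex than in SC, against 3.15% of all probe sets.

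**Figure D1:**
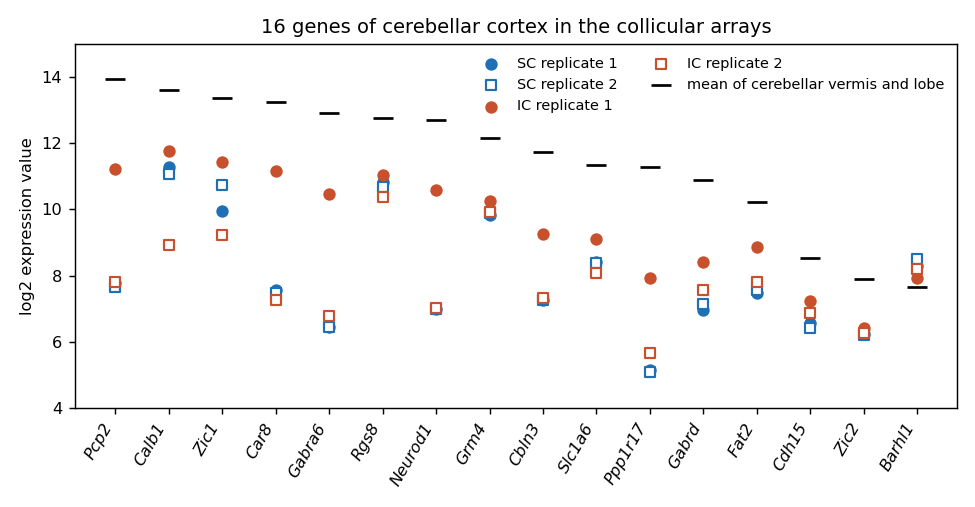
Log2 expression value of 16 genes of the cerebellar cortex in each array of SC (blue) and IC (orange), with the mean of cerebellar vermis and lobe as a black bar. IC replicate 1 (filled orange) lies above IC replicate 2 for 15 of the 16 genes, at 11.23 against 7.80 for *Pcp2*.

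IC replicate 1 also stood apart in oligodendrocyte genes, of which 15 of 16 were lower in it than in IC replicate 2, by a median of 0.37. The median SC minus IC of that list was 0.07 with all arrays, -0.15 without IC replicate 1 and 0.23 without IC replicate 2. SC replicate 2 stood apart in a smaller way. All 14 leptomeningeal genes, which mark the membrane over the brain surface, were lower in it than in SC replicate 1, and their mean level was 8.86 and 8.18 in the arrays of SC and 8.87 and 8.91 in those of IC. Of the 14, 4 were called higher in IC with all arrays, against 5.01% of all genes. The median SC minus IC of the 14 was -0.38 with all arrays. It was -0.77 without SC replicate 1 and -0.05 without SC replicate 2. The ratio of 3' to 5' control signal of *Gapdh*, a sign of RNA quality, was between -0.09 and 0.05 on the log2 scale in the 4 arrays, within the range of -0.25 to 0.26 over the 96. For *Actb* it was 1.28 and 1.26 in SC and 1.10 and 1.03 in IC. The part of these measures in the results was not tested.

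Transcription factor genes were among those with the largest differences, and a pair of related ones took opposite sides. *Tfap2b*, an AP-2 factor, read 9.15 and 9.47 in SC and 6.68 and 6.13 in IC. Both arrays of SC lay above those of IC, which was a condition for the named genes of largest difference. The means differed by 2.91 (SE 0.22, adjusted p = 6.12e-15, limma), and SC was the highest of the 48 regions, before the cerebellar lobe at 8.05. Its paralogue *Tfap2d* went the other way, at 6.86 and 7.00 in SC and 9.70 and 9.98 in IC. IC was higher by 2.91 on the log2 scale (SE 0.12, adjusted p = 2.56e-26). The next highest regions were the piriform cortex at 7.13 and SC itself, whose mean of 6.93 lies within the range of the 46 other regions, so no fold is given. The study chose *Tfap2b* and *Pax7* for SC and *Tfap2d* and *Sema3f* for IC on these arrays, so these 4 are no independent evidence of direction.

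*Tfap2d* and *Tfap2b* are neighbours in the genome. In GRCm38.p6 they lie on the forward strand of chromosome 1, at chr1:19103022-19173948 and chr1:19208908-19238845, with a gap of 34959 bases and 0 other annotated genes between them. To show what lies before the start of such genes, 250 bases were taken from RefSeq (GRCm38.p6) for 3 genes highest in one colliculus, *Otx2* in SC and *Tfap2d* and *Tpbg* in IC, choosing windows outside the gene's own annotation. The window of *Otx2* is chr14:48667645-48667894 on the reverse strand, and that of *Tfap2d* is chr1:19102772-19103021 on the forward strand, overlapping the lncRNA gene *Gm15825*. The window of *Tpbg* is chr9:85842130-85842379 on the forward strand, overlapping a lncRNA gene without a symbol. Capitals mark TAATTA, a core letter string of homeodomain binding:
Otx2: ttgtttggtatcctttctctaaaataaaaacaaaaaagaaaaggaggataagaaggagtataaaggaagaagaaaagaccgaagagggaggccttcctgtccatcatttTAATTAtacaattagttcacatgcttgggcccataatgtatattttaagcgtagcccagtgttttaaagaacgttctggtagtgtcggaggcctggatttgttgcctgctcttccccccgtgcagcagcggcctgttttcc
Tfap2d: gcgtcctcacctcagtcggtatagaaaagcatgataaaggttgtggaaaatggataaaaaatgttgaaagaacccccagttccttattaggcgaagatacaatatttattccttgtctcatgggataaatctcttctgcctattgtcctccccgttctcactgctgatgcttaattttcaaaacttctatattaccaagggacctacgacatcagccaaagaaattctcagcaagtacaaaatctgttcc
Tpbg: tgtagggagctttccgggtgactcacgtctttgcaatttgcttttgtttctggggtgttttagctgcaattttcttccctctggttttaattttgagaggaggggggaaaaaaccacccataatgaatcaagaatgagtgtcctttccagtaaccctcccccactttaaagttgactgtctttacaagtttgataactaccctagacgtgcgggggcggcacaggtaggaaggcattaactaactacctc
TAATTA reads the same on both strands and stood 141 bases before the start of *Otx2*. It occurred in 4.84% of all 32851 windows of this length and in some window of 5.65% of 27025 genes. Of the 15 genes named as higher in SC it occurred in 2 (*Otx2* and *Tenm3*), and of the 14 matched genes higher in IC in 1 (*Mef2c*). The AP-2 string GCCNNNGGC, also the same on both strands, occurred in 15.4% of genes, in 2 of the 15 (*Npnt* and *Scml2*) and in 1 of the 14 (*Pvalb*). The string TAATCC, bound by OTX factors and read on both strands, occurred in 7.21% of genes and in 1 gene of each group, *Otx2* (in another window than that shown) and *Tcf7l2*. The windows shown of *Tfap2d* and *Tpbg* held none of the 3 strings, which says nothing about binding of the factors.

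The homeodomain factor *Otx2* marks the fore- and midbrain in the embryo. It read 10.31 and 9.82 in SC and 7.36 and 8.00 in IC, a difference of 2.39 (SE 0.21, adjusted p = 1.58e-12). *Pax7*, a paired-box factor of the dorsal midbrain, read 9.56 and 9.01 in SC and 6.94 and 7.22 in IC, a difference of 2.20 (SE 0.12). For both genes SC was the highest of the 48 regions and IC the third. *Pou4f1* (Brn3a), a POU factor of sensory neurons and habenula, read 7.35 and 6.91 in SC and 4.68 and 4.95 in IC, and only the habenular nucleus was higher than SC.

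On the IC side, *Tcf7l2*, a Wnt effector known from thalamus, read 8.07 and 8.03 in SC and 10.69 and 10.97 in IC, a difference of -2.77 (SE 0.28, adjusted p = 5.45e-11). All 4 of its probe sets were called the same way. *En1* and *En2*, homeodomain factors of the midbrain-hindbrain border, were higher in IC. *En1* read 4.63 and 4.67 in SC and 6.02 and 6.04 in IC, and *En2* differed by -0.91. The level of *En2* was highest in the cerebellar lobe, at 10.81 against 7.83 in IC and 6.92 in SC. IC replicate 1 stood apart in transcripts of the cerebellar cortex, and their part in the *En2* difference is not given here. *Lhx9* and *Zfhx3* were also higher in IC, by 0.93 and 1.55 on the log2 scale, with adjusted p-values of 6.38e-07 and 1.79e-07.

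Of 79 transcription factor genes of the tectum and its surroundings, 20 were called higher in SC and 8 higher in IC, with a median SC minus IC of 0.04. Over all genes 9.23% and 5.01% were called. *Gata3* and *Tal1*, which specify inhibitory neurons of the midbrain, were highest of the 48 regions in SC. *Tal1* read 9.40 and 8.73 in SC and 7.34 and 8.13 in IC. Other factors higher in SC were *Lmo1* by 1.75, *Mab21l2* by 1.71, *Ebf1* by 1.47 and *Nr2f1* by 1.19. Leaving out IC replicate 1 left 18 and 8 of the 79.

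**Figure D2:**
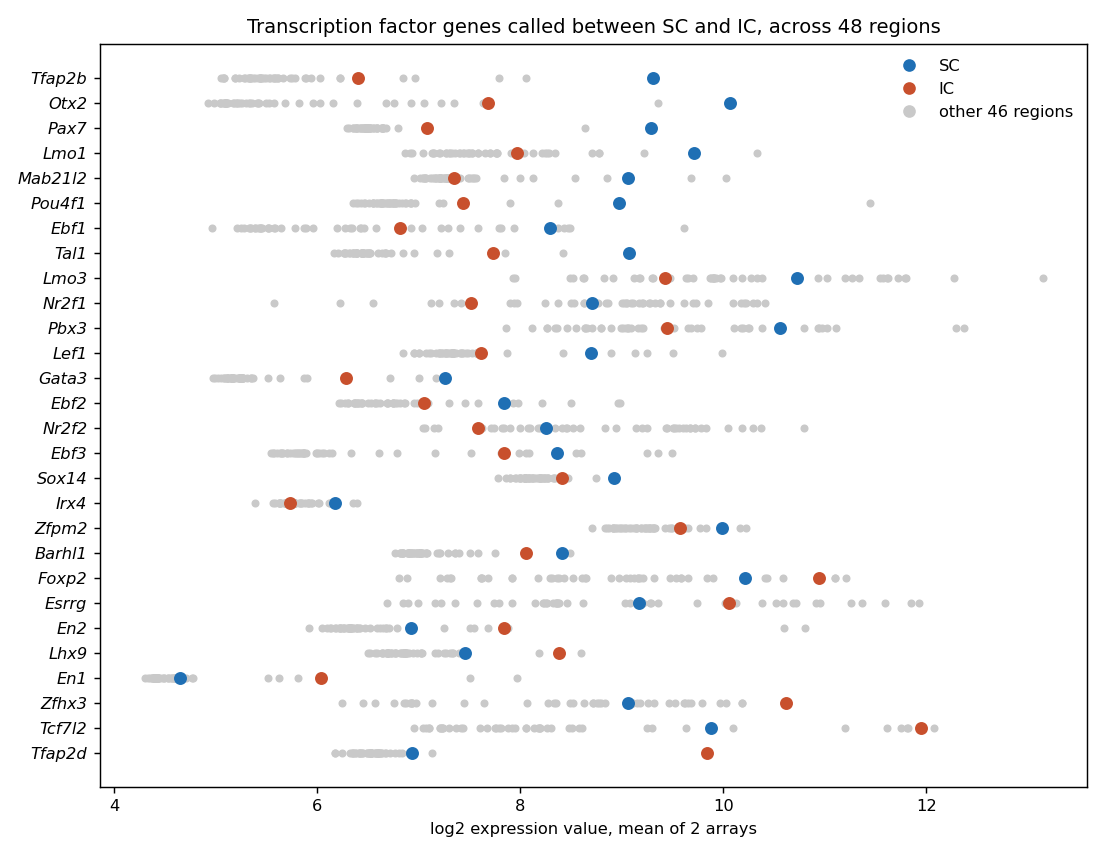
Mean log2 expression value over 2 arrays of the 28 transcription factor genes called between SC and IC, in SC (blue), IC (orange) and the other 46 regions (grey). *Tfap2b* and *Otx2* reach their highest level of all 48 regions in SC, and *Tfap2d* in IC, well above the piriform cortex at 7.13.

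Eph receptors and their ephrin ligands sort growing axons by repulsion and adhesion. Of 21 such genes, 6 were called higher in SC and 0 higher in IC, with a median of 0.12, against 9.23% and 5.01% of all genes. *Epha4*, a receptor that guides tectal and spinal axons, read 9.89 and 9.55 in SC and 6.64 and 7.64 in IC, the lowest of the 48 regions, a difference of 2.58 (SE 0.23). This was its probe set with the largest difference, and 2 of its 5 probe sets were called. *Epha7*, a receptor of topographic maps, read 7.72 and 7.58 in SC and 5.59 in both arrays of IC, and all 4 of its probe sets were called. *Epha8*, a receptor known from the SC, differed by 0.97 and *Ephb6* by 1.13. Without any 1 of the 4 arrays, 5 of the 21 were called higher in SC.

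Of 31 semaphorins, plexins and neuropilins, 9 were called higher in SC and 4 higher in IC, against 9.23% and 5.01% of all genes. Their median was 0.25. *Sema3c* read 9.41 in both arrays of SC and 8.39 and 8.37 in IC, while *Sema3a*, *Sema5b*, *Sema7a* and *Plxnd1* were higher in IC. *Sema3f*, a repellent of axons, had 3 probe sets, of which 2 were called higher in IC, by 0.94 and 0.52. The third, with the highest level, read 11.05 and 10.85 in SC and 11.13 and 10.89 in IC and was not called. The list counts were 5 and 3 without SC replicate 1, 4 and 4 without SC replicate 2, 6 and 3 without IC replicate 1 and 3 and 2 without IC replicate 2. Of 22 netrin, Slit and other guidance genes, 5 were called higher in SC, among them *Slit1* by 0.97 and *Slit2* by 1.06, and 2 higher in IC. These counts were 3 and 1 without SC replicate 1, 2 and 0 without SC replicate 2 or IC replicate 1, and 3 and 0 without IC replicate 2.

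Of 56 cadherins and protocadherins, 12 were called higher in SC and 6 higher in IC, against 9.23% and 5.01% of all genes. Their median was 0.12. *Pcdh8*, a protocadherin regulated by activity, read 11.20 and 10.93 in SC and 9.12 and 9.63 in IC (adjusted p = 2.87e-09). *Pcdh19*, *Pcdh20* and *Cdh13* differed by 1.56, 1.45 and 1.34. *Cdh9*, a classical cadherin of synapse formation, was higher in IC, at 6.62 and 6.93 in SC against 8.04 and 8.33 in IC. Of the 12 genes 9, and of the 6 genes 1, passed in each of the 4 fits that left out 1 array, and 2 were called higher in IC without SC replicate 1. *Tenm3*, a teneurin that wires visual circuits, was at 11.23 and 11.37 in SC, the highest of the 48 regions, and at 8.96 and 9.38 in IC.

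**Figure D3:**
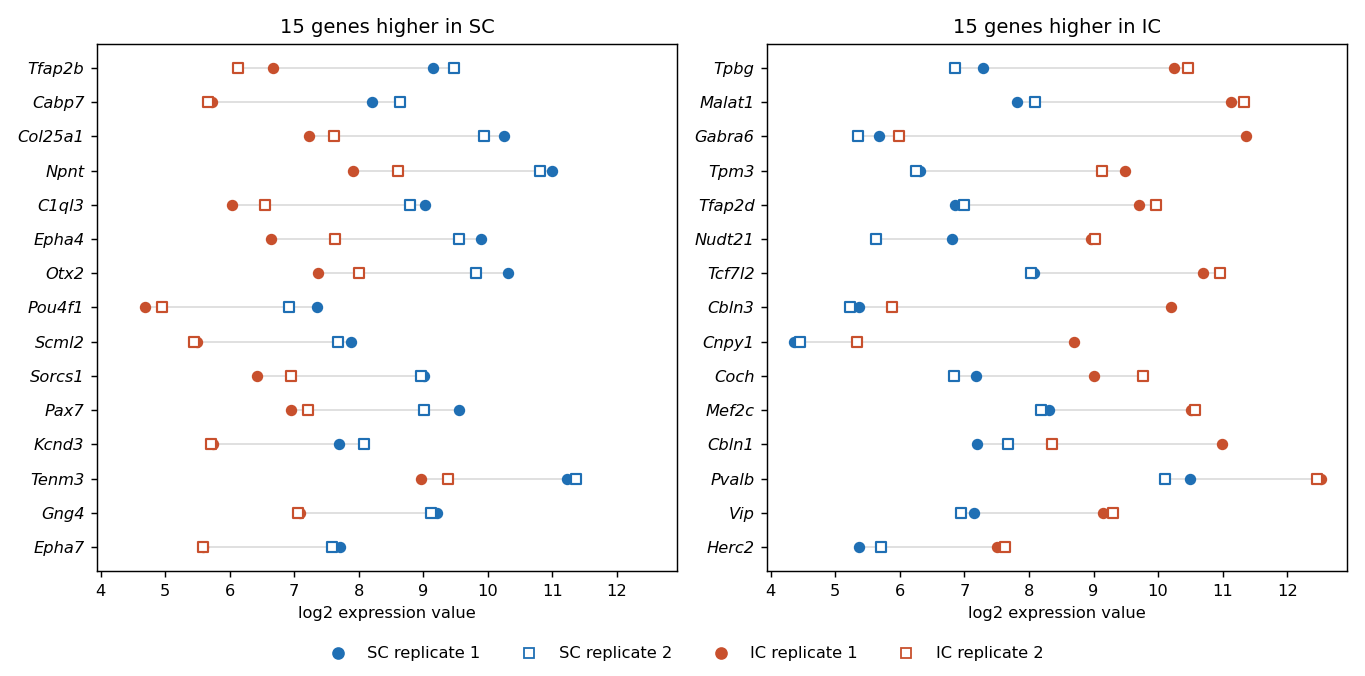
Log2 expression value in the 4 arrays of the 15 genes with the largest called difference in each direction, SC in blue and IC in orange, replicate 1 filled and replicate 2 open. *Gabra6*, *Cbln3*, *Cnpy1* and *Cbln1* read far higher in IC replicate 1 than in IC replicate 2.

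Several genes of inhibitory transmission were called higher in SC, against 9.23% of all genes, and fewer higher in IC, against 5.01%. Of 29 genes of GABA and glycine release and receptors, 10 were called higher in SC and 4 higher in IC, with a median of 0.15, and 7 and 2 without IC replicate 1. *Slc32a1*, the vesicular inhibitory amino acid transporter, read 11.51 and 11.43 in SC and 10.18 and 10.60 in IC, a difference of 1.08 (SE 0.26, adjusted p = 0.00261). *Gad2*, which makes GABA, differed by 0.88 (adjusted p = 0.00569), and its relative *Gad1* by 0.19 (adjusted p = 0.68). Without IC replicate 1, *Slc32a1* and *Gad2* were no longer called (adjusted p = 0.0766 and 0.0755).

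Among receptor subunits, *Gabra5*, of tonic GABA receptors, read 9.35 and 9.12 in SC and 7.43 and 8.04 in IC. *Gabrb1* was higher in SC by 1.02 and *Gabrr2*, the retinal rho subunit, by 1.02. *Gabrr2* read 7.42 and 7.58 in SC, the highest of the 48 regions, which leave out the retina, and 6.58 and 6.37 in IC. *Gabrb2* was higher in IC, by 0.83. The other members higher in IC were *Slc6a13*, which is also a leptomeningeal gene, and *Gabra6* and *Gabrd*, both of cerebellar granule cells and not called without IC replicate 1. The glycine transporter gene *Slc6a5* and the glycine receptor gene *Glra1* were not called, at -0.03 and -0.17.

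Of 24 glutamate genes, 6 were called higher in SC and 4 higher in IC, against 9.23% and 5.01% of all genes. Their median was -0.08. *Grm8*, a presynaptic metabotropic receptor, read 8.19 and 7.97 in SC and 6.86 and 7.00 in IC. *Grik3*, a kainate receptor subunit, was higher in SC by 1.11, and *Grm3*, *Gria2* and *Grik2* were higher in IC. The fourth gene higher in IC, *Grin2c*, known from cerebellar granule cells, was not called without IC replicate 1, and the IC count was 2 without either array of SC. The vesicular glutamate transporter gene *Slc17a6* was not called, at -0.42 (adjusted p = 0.287). Of 35 monoamine and acetylcholine receptor genes, 5 were called higher in SC and 3 higher in IC, and without SC replicate 1, SC replicate 2 or IC replicate 2 the counts were 3 and 2, 5 and 1, and 4 and 0. *Chrna6*, a nicotinic subunit of retinal terminals and dopamine neurons, read 8.17 and 8.11 in SC, the third highest of 48 regions, and 6.96 and 6.76 in IC.

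*Pvalb* encodes parvalbumin, the calcium buffer of fast-spiking neurons. It read 10.49 and 10.11 in SC and 12.53 and 12.47 in IC, a difference of -2.20 (SE 0.20, adjusted p = 6.75e-12), and -2.17 without IC replicate 1. *Syt2*, the fast calcium sensor of release, read 9.49 and 9.74 in SC and 10.80 and 11.22 in IC. The net linker genes *Hapln1* and *Hapln4* differed by -1.22 and -0.70, and *Acan* by -0.37. Most of the 30 net and matrix genes went the other way, with 20 above 0 and a median of 0.12. Without IC replicate 1 both Hapln genes were still called and *Acan* was not (adjusted p = 0.0567).

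The lists that hold these genes had calls on both sides, against 9.23% of all genes higher in SC and 5.01% higher in IC. Of 18 calcium-binding protein and neurofilament genes 2 were called in each direction, of 30 net and matrix genes 7 were higher in SC and 3 in IC, and of 44 release genes 8 and 4. Without SC replicate 1, SC replicate 2, IC replicate 1 and IC replicate 2 in turn, the first list had 1, 1, 3 and 2 genes higher in SC and 1, 1, 3 and 1 higher in IC. The net list then had 4, 5, 6 and 4 and 2 each time, and the release list 5, 6, 7 and 4 and 3, 2, 3 and 1. The calbindin gene *Calb1* read 11.27 and 11.06 in SC and 11.78 and 8.93 in IC. It was not called with all arrays (0.81, adjusted p = 0.116) and was higher in SC by 2.23 without IC replicate 1 (adjusted p = 4.66e-08).

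Potassium channel genes split between the colliculi, while over all genes 9.23% were called higher in SC and 5.01% higher in IC. Of 40, 6 were called higher in SC and 8 higher in IC, with a median of 0.02, and 5 were called higher in IC without IC replicate 2. *Kcnd3*, the A-type channel Kv4.3, read 11.49 and 11.36 in SC, the highest of the 48 regions, and 9.72 and 9.39 in IC. *Kcna1*, the low-threshold Kv1.1 subunit, was lower in SC by 0.94 and its partner *Kcnab3* by 1.10. *Kcnab3* read 9.27 and 9.43 in SC and 10.27 and 10.62 in IC, the second highest of 48. *Kcnc1*, a channel of fast repolarization, was not called, at -0.20. Among 29 sodium, calcium and HCN channel genes, 7 were called higher in SC and 5 in IC, and the IC-side count was 4 without IC replicate 1, 1 without IC replicate 2, 3 without SC replicate 1 and 2 without SC replicate 2. *Cacng5*, an AMPA receptor auxiliary subunit, had the largest of these differences, at 8.54 and 8.48 in SC and 10.16 and 10.14 in IC.

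Of 37 neuropeptide precursor and secreted factor genes, 11 were called higher in IC and 2 higher in SC, with a median of -0.13, against 5.01% and 9.23% of all genes. *Vip* read 7.15 and 6.95 in SC and 9.15 and 9.30 in IC, and *Npy* 8.97 and 8.78 in SC and 10.75 and 10.80 in IC. *Grp* (gastrin-releasing peptide) differed by -1.73, *Cck* by -1.59, *Penk* by -1.46 and *Sst* by -1.20. For these 6, both arrays of IC lay above both of SC, as they did for 21.4% of all genes. The 6 were picked among called genes, so this adds no support. *Penk* varied within SC, at 8.09 and 9.31. Of the 11, *Cbln1* and *Cbln3* encode cerebellins, which are synaptic organizers, and neither was called without IC replicate 1, which left 9.

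*Cartpt* was higher in SC, at 9.08 and 9.26 against 7.57 and 7.70 in IC, and *Igf1*, a growth factor, by 0.91. *Igf1* was not called without SC replicate 1 (0.60, adjusted p = 0.185) or without IC replicate 1 (0.63, adjusted p = 0.145), which left 1 gene of the list higher in SC. Among 43 receptors, 5 were called higher in SC and 4 in IC, against 9.23% and 5.01% of all genes. *Npy1r*, the Y1 receptor of NPY, read 6.91 and 7.20 in SC and 8.23 and 8.60 in IC (adjusted p = 4.05e-10). *Npy5r* was also higher in IC, by 0.54. The counts were 0 and 3 without either array of SC and 1 and 3 without either array of IC.

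Many genes of oxidative phosphorylation, the respiratory chain and ATP synthase of mitochondria, were called higher in IC, by small amounts. Of 80 subunit genes, 30 were called higher in IC and 0 higher in SC, with a median of -0.21, against 5.01% called and a median of 0.045 over all genes. Of the 80 differences, 70 were below 0. Both arrays of IC lay above both of SC for 57 of the 80, against 21.4% of all genes. The arrays of IC also differed from each other. IC replicate 1 lay above IC replicate 2 for 11 of the 80, with a median difference of -0.10. Leaving out single arrays moved the median SC minus IC to between -0.26 (without IC replicate 1) and -0.16 (without IC replicate 2). A fit of the arrays of SC and IC alone called 14 higher in IC and 0 higher in SC. *Ndufa4* read 11.73 and 11.72 in SC and 12.36 and 12.47 in IC, a difference of -0.69 (SE 0.10, adjusted p = 1.59e-06). *Ndufa2* differed by -0.59, *Atp5g1* by -0.56 and *Cox5a* by -0.43, and SC was the lowest of 48 regions for *Ndufa2*.

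The genes were grouped into 5 complexes by name only, and calls fell in each group. Of 35 Nduf genes, taken as complex I and with *Ndufa4* among them, 15 were called higher in IC. For complexes II, III and IV it was 1 of 4, 2 of 9 and 6 of 15, and for ATP synthase 6 of 17. The medians ran from -0.15 to -0.23. Without IC replicate 1, 24 of the 80 were called, 20 without SC replicate 2, 17 without SC replicate 1 and 16 without IC replicate 2, and with the sampling day as a block 18. Of 29 genes of glycolysis and glucose or lactate transport, 2 were called in each direction, against 9.23% and 5.01% of all genes.

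**Figure D4:**
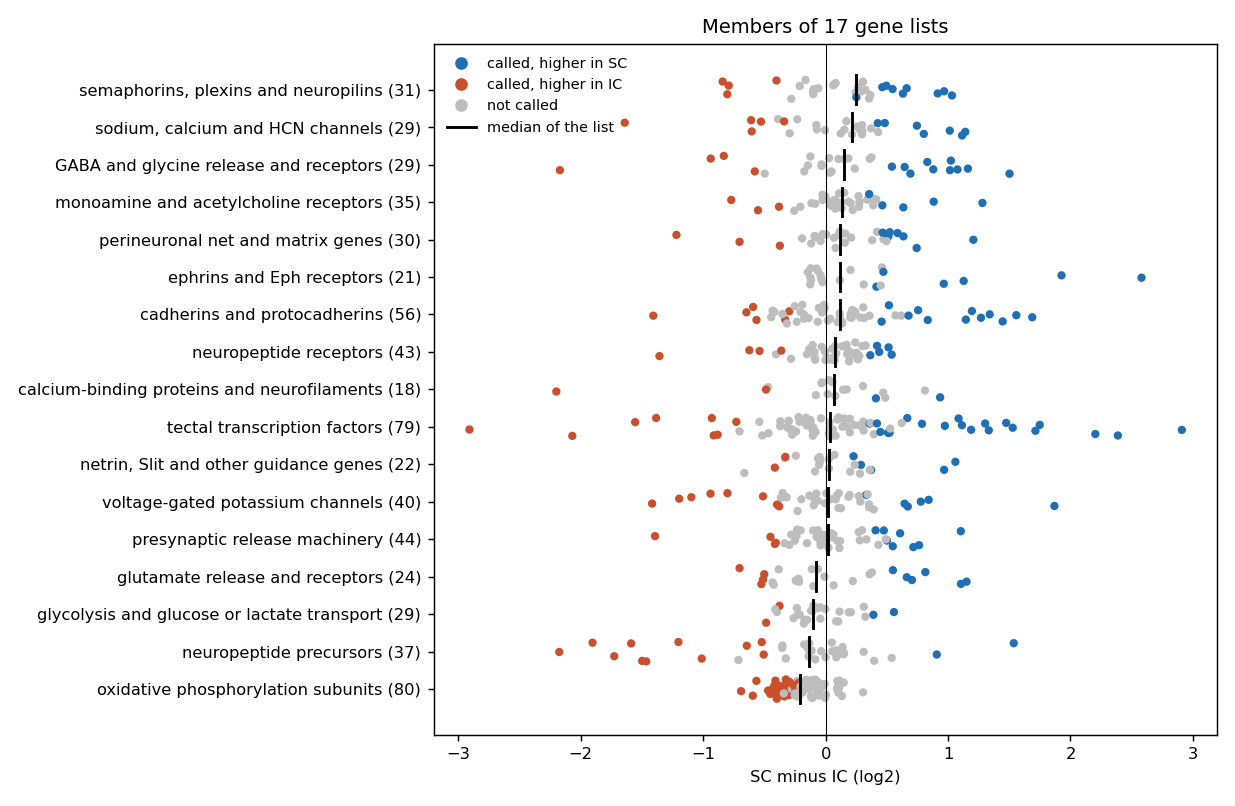
SC minus IC on the log2 scale of the members of 17 gene lists (number of genes in brackets), called higher in SC in blue, called higher in IC in orange and not called in grey, with the median of each list as a black line. The oxidative phosphorylation list has its median at -0.21 and no member called higher in SC.

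Among the other genes with the largest differences, *Tpbg* (trophoblast glycoprotein, a Wnt inhibitor) read 7.28 and 6.85 in SC and 10.24 and 10.46 in IC, the highest of 48 regions. The SC mean of 7.07 lies below the median of 7.27 over the 46 other regions, so no fold is given. *Tpbg* differed by -3.28 at this probe set and by -3.17 at another. The third differed by only -0.30 and was not called without either array of SC or without IC replicate 2. *Cabp7*, a calcium-binding protein of the Golgi, read 8.21 and 8.63 in SC and 5.72 and 5.67 in IC. *C1ql3*, a synaptic complement-like factor, read 9.03 and 8.80 in SC and 6.03 and 6.55 in IC. *Npnt*, a matrix ligand of integrins, read 10.99 and 10.81 in SC and 7.91 and 8.61 in IC. *Sorcs1*, a sorting receptor of neurons, was higher in SC by 2.30, and *Gng4*, a G protein gamma subunit, by 2.09. *Scml2*, a Polycomb protein, read 7.88 and 7.68 in SC and 5.49 and 5.45 in IC.

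On the other side, *Coch*, a matrix protein known from the cochlea, read 7.18 and 6.84 in SC and 9.01 and 9.77 in IC, a difference of -2.38 (SE 0.23). *Mef2c*, a MADS-box factor of neurons, read 8.31 and 8.19 in SC and 10.52 and 10.58 in IC, and all 5 of its probe sets were called. All 15 genes named as higher in SC were called in each of 4 fits without 1 array, and 11 of the 15 higher in IC were. *Gabra6*, *Cbln3* and *Cbln1* were not called without IC replicate 1 (differences of -0.47, -0.58 and -0.92). *Nudt21* kept its difference without IC replicate 1 (-2.81, against -2.78 with all arrays) but was not called (adjusted p = 0.0532), nor without SC replicate 2 (adjusted p = 0.154) or IC replicate 2 (adjusted p = 0.0601). *Cnpy1* fell to -0.94 but was still called (adjusted p = 0.0088).

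*Malat1*, a nuclear long noncoding RNA, read 7.81 and 8.10 in SC and 11.13 and 11.32 in IC, and SC was the lowest of the 48 regions. Of its 7 probe sets, 6 were called higher in IC, and the other differed by -0.27. For other genes the probe sets of a gene disagreed. *Tpm3* read 6.31 and 6.25 in SC and 9.48 and 9.13 in IC at 1 probe set, and its other 4 were not called. *Herc2* differed by -2.04 at 1 probe set, with the other 3 between -0.11 and 0.02. *Col25a1* differed by 2.68 at 1 probe set and by -0.01 at the other. Of 5 probe sets of *Npnt*, the other 4 differed by 1.68, 0.41, 0.26 and 0.03, and the last 2 were not called. Those of *Nudt21* differed by -2.78, -2.23, -0.56 and 0.30, and the last was not called. *Gng4* had 2.09, 1.80 and 0.18, and *Sorcs1* 2.30, 0.70 and 0.02, with the last of each not called. For *C1ql3* (2.62, 0.95 and 0.66) and *Scml2* (2.31 and 0.55) all probe sets were called, at unlike sizes.

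Markers of glia, vessels and other cells were counted the same way, against 9.23% called higher in SC and 5.01% higher in IC over all genes. With all arrays, none of 15 endothelial and mural, 12 ependymal, 2 blood and 4 cholinergic genes was called. Of 10 neuronal genes 2 were called in each direction, of 16 oligodendrocyte genes 1 in each, of 13 astrocyte genes 2 and 1 and of 12 microglial genes 1 higher in SC. No astrocyte gene was called without SC replicate 2 or without IC replicate 1, and no oligodendrocyte gene without either of these or SC replicate 1. Of 7 oligodendrocyte precursor genes 3, *Pdgfra*, *Gpr17* and *C1ql1*, were higher in SC by 0.59 to 0.66. Their list mean was 9.81 and 9.73 in SC and 9.46 and 9.45 in IC. Of 14 cortical and hippocampal genes 3 were called higher in SC, *Lamp5*, *C1ql2* and *C1ql3*, with *Lamp5* at 9.55 and 9.81 in SC and 7.39 and 7.93 in IC. Of 14 immediate early genes and 14 pineal and photoreceptor genes 1 each was called higher in IC, and of 10 monoaminergic genes *Ddc* was higher in SC and *Aldh1a1* higher in IC. The 13 genes of the choroid plexus had 1 call, *Otx2*, and *Ttr*, its most abundant marker, read 8.56 to 9.12 in the 4 arrays against 14.52 in the highest region.

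The midbrain pair was set beside the thalamic pair of the same senses, LG for vision and MG for hearing. These comparisons share no array, but IC and MG were sampled on the same days. LG minus MG was called for 1867 probe sets (4.15%). The 2 comparisons shared 535 called probe sets, which is 8.77% of the collicular calls and 28.7% of the thalamic ones, and 301 of these had the same sign. That count was 200 without IC replicate 1, 197 without IC replicate 2, 131 without LG replicate 2, 122 without MG replicate 1 and 171 without MG replicate 2. At 1 probe set per gene, LG minus MG was called for 4.52% of genes. Of the genes called in both comparisons, 53 were higher in SC and LG, 70 in IC and MG, 104 in SC and MG and 24 in IC and LG.

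*Grp* was higher in both auditory regions, at 7.02 and 7.01 in LG and 9.85 and 9.74 in MG. *Tpbg* was also higher in MG than in LG, by 0.98. *Cplx3*, a complexin of ribbon synapses, was higher in SC by 1.10 and in LG by 0.82. *Pvalb* ran the opposite way, at 12.41 and 12.29 in LG and 9.81 and 10.45 in MG. The difference between the 2 comparisons was -4.42 (SE 0.29). *Sst* and *Npy* also turned, at 1.55 and 0.71 for LG minus MG. *Scn3b*, a sodium channel subunit, was higher in SC by 1.14 and lower in LG than in MG by 1.30. The large collicular differences of *Tfap2b*, *Pax7* and *Otx2* had no called counterpart in the thalamus, at -0.28, 0.05 and 0.30.

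**Figure D5:**
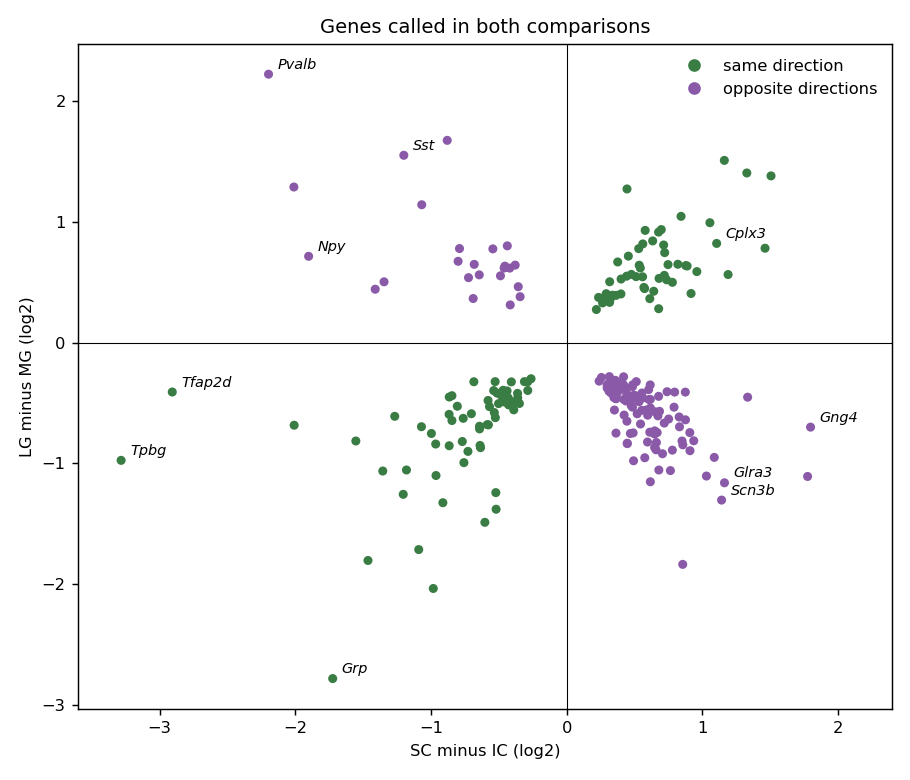
SC minus IC (x axis) against LG minus MG (y axis), both on the log2 scale, for the 251 genes called in both comparisons at 1 probe set per gene, 123 of the same sign in green and 128 of opposite signs in purple. *Grp* lies low in the lower left and *Pvalb* high in the upper left.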

How the data were processed

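RNA of 51 regions was hybridised to 102 Affymetrix mouse whole-genome arrays, 2 for each region. The authors deposited RMA-normalized signals on the log2 scale. Precision is limited by the number of arrays, since they hold no counts. The fit took 96 arrays of 48 regions (retina, pituitary and pineal were left out) in limma 3.58.1 under R 4.3.3. Each region had its own mean, and p-values were adjusted by Benjamini-Hochberg over 45037 probe sets, after 64 controls were dropped. The fit was tried on simulated shifts in SC. The simulation had the same spread in all regions for a probe set and no array that stood apart. It therefore does not cover a case like IC replicate 1. The platform annotation names 1 gene for 34945 probe sets, several for 932 and none for 9160.

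Named genes are the 15 largest called differences per direction in which the arrays of SC and IC did not overlap, the members of 33 gene lists (by the probe set with the highest mean) and the study's own candidates. The members, lists and tests were chosen with earlier results of these data known. By the study's sampling days, SC replicate 2 and IC replicate 1 fell on 1 day. The p-values measure the spread between pools. Promoter windows come from RefSeq. Figures were drawn with matplotlib 3.10.9 in Python 3.11.15. Alternatives were a fit of the 4 arrays alone, also with the replicate number as a block, the sampling day as a block, a variance trend with robust fitting, cyclic loess, a filter on level, a threshold of 0.01, the mean of a gene's probe sets and leaving out each array.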

Additional observations from a re-analysis of the deposited data

Results flagged for a closer look

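For 22 of the genes described or listed, the SC minus IC difference had the opposite sign to LG minus MG with both called. The genes were chosen for this, so the test of the difference between them had to pass and adds no support. Values are (SC minus IC) minus (LG minus MG) on the log2 scale. The widest gap was that of *Pvalb*, at -4.42. The difference was also below 0 for *Mef2c* (-3.20), *Sst* (-2.75), *Npy* (-2.62), *Esrrg* (-2.56), *Sema7a* (-1.57), *Kcng4* (-1.47), *Ndufa4* (-1.05) and *Cox6a2* (-1.02), which were higher in IC and in LG. It was above 0 for *Gng4* (2.89), *Scn3b* (2.45), *Glra3* (2.32), *Stx1a* (1.82), *Igf1* (1.80), *Tal1* (1.79), *Necab2* (1.75), *Cdh4* (1.73), *Kcnt2* (1.67), *Gabrg1* (1.53), *Agt* (1.28), *Nptx1* (1.15) and *Cacng3* (1.02), which were higher in SC and in MG. IC and MG were sampled on the same days, and the part of this in the result was not tested. For *Mef2c*, LG minus MG was called at the probe set used (0.90) but not at its others (0.70, 0.38, 0.33 and 0.28). Of the 22, 10 were not called for SC minus IC in at least 1 of the fits without 1 array of SC or IC (*Sst*, *Esrrg*, *Cox6a2*, *Cacng3*, *Nptx1*, *Agt*, *Kcnt2*, *Cdh4*, *Igf1* and *Glra3*). *Cox6a2* was called in none of these fits, though its difference stayed between -0.44 and -0.32, against -0.38 with all arrays. *Nptx1* fell from 0.59 to 0.36 without IC replicate 2.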

How the results depend on the processing

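With adjusted p under 0.01 the calls were 1622 higher in SC and 1403 higher in IC, and 108 probe sets had the same sign in LG minus MG. Without each array in turn, 1606 to 1951 and 1278 to 1667 were called, and 122 to 257 shared their sign. Cyclic loess gave 3107 and 3493, so that more were higher in IC. The other alternatives gave 2352 to 3375 and 2063 to 2818. The replicate numbers did not pair the arrays (correlation of deviations 0.078), and with the number as a replicate block in the 4 arrays the calls were 3184 and 2818. Without probe sets high in cerebellum, a choice made after seeing the data, they were 3319 and 2419. Of 261 genes followed, 121 kept direction and call under all settings. *Scn2b* reversed to -0.24 with the mean of its probe sets and *Car8* to 0.24 without IC replicate 1, against -3.63 without IC replicate 2. Neither reversed value was called, so neither shows a change of direction. With 2 pools a region, small differences are not resolved.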
